A study of Mus musculus with 2 samples.

Results

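The CEP genes are the genes whose symbol is Cep followed by a number, an abbreviation of centrosomal protein. They were found as the probes whose symbol in the deposited table, or the current symbol of whose Entrez Gene ID, fits that pattern. This gave 82 of the 41174 probes on the array, and they belonged to 40 genes. The file itself used a Cep symbol for 34 of the probes, and the other 48 were found through the current symbol alone, such as those listed as Lrriq2 (Cep97) or Fgfr1op (Cep43). Of the 34, 3 matched by their old name alone: Cep110 is now Cntrl, the gene of centriolin, and Cep27 is now Haus2, the gene of an augmin subunit. The group was proposed with the comparison of precipitate and input in view, so its values in that comparison are given as a description, with no test.

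The tissue was male gonad of MCH mice at embryonic day 14.5, and every sample carried the transgene Tg-Nanos2 enhancer-3xFLAG-Nanos2-3'UTR, which by its name places FLAG-tagged Nanos2 under a Nanos2 enhancer. RNA recovered with Anti-FLAG M2-Agarose (FLAG IP) was compared with RNA that had no antibody step (input). Each group had 2 one-colour Agilent arrays, described by the series as biological duplicates, so n = 2 per group throughout. The dissection and RNA extraction given in the labels do not differ between the groups, and the labels do not say how many gonads were pooled. A precipitate from gonads without the transgene was not analysed here, so RNA that binds the agarose by itself was not measured.

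A centrosome is a pair of centrioles within a cloud of proteins that nucleates microtubules, and in cells that stop dividing the older centriole becomes the base of a cilium. Once per cell cycle each centriole templates a new one, which the kinase PLK4 starts. CEP proteins take part in these steps but are not one sequence family, since the name was given for where the protein was found and a number. NANOS2 is an RNA-binding protein of fetal male germ cells, which stop dividing around this stage, and it is known to bring the CCR4-NOT deadenylase to messenger RNAs.

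The arrays differed in brightness and the precipitates were less alike than the inputs. Taken over all spots but controls, the processed signal reached a 75th percentile of 55.7 intensity units for FLAG IP replicate 1 but 608 for FLAG IP replicate 2, against 1026 and 1038 on the input arrays. Every level below is therefore a multiple of the 75th percentile of its own array. The lowest level that counted as well above background was 0.147 for FLAG IP replicate 1 but 0.0160 for FLAG IP replicate 2, and 0.0143 and 0.00933 on the input arrays. The slide of input replicate 1 held no other array of the study, and the remaining 3 arrays shared one slide.

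A probe counted as measured when both arrays of either group read it as well above background, which 65 of the 82 probes met. They represented 38 of the 40 genes, each described by its brightest probe. Of these 38 genes, 26 were well above background on all 4 arrays, 11 on both input arrays and 1 FLAG IP array, and Cep68 on the input arrays only. The median SD between replicates was 0.268 in the FLAG IP and 0.0730 in the input on the log2 scale.

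Most CEP transcripts stood higher in the FLAG IP than in the input, relative to the 75th percentile of each array. The log2 difference of FLAG IP minus input ran from -0.91 for Cep63 to 2.17 for Cep97, with a median of 0.79, against 0.07 over all 15269 genes tested. It was above 0 for 34 of the 38 genes (52.1% of all genes), above 1 for 16 (24.0% of all genes), and below -1 for 0 (23.6% of all genes). Both FLAG IP arrays lay above both input arrays for 27 genes (42.0% of all genes) and below both for 3 (38.2% of all genes), and the groups overlapped for the other 8. Some genes were not well above background on FLAG IP replicate 1, such as Cep20 and Cep135 among the 27 and Haus2 among the 3. For such genes the separation is not measured on that array. In the fit across all genes with limma and a threshold of 0.05 on the adjusted p, 18 CEP genes fell on the higher side (28.0% of all genes) and 1 on the lower side (25.4% of all genes, 53.4% in either direction). Since this comparison was in view when the group was chosen, nothing is read from these counts. Input replicate 1 was alone on its slide, so a block for slide left the FLAG IP set against input replicate 2 alone. A slide effect therefore cannot be told apart from input replicate 1. With this block the CEP median was 0.65 (0.07 over all genes). The number on the higher side did not hold when 1 input array was left out. The lone input array is then assumed to vary like the FLAG IP. Leaving out input replicate 1 gave a CEP median of 0.77 (0.13 over all genes), and leaving out input replicate 2 gave 0.98 (0.07 over all genes). Summed over the 38 genes, the level was 107 and 106 on the FLAG IP arrays, against 56.8 and 56.7 on the input arrays.

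Markers of the cell types of the gonad moved in the same comparison, in which 28.0% of all genes rose and 25.4% fell in limma. In limma 5 of the 10 markers of germ cells rose and 1 fell, the other 4 staying short of the threshold, and their summed level was 190 and 227 on the FLAG IP arrays, against 102 and 108 on the input arrays. Among the 8 genes listed as markers of Sertoli cells 7 fell and 1 rose, at a summed level of 20.1 and 20.4 in the FLAG IP, against 131 and 112 in the input. All 5 Leydig cell markers fell (20.01 and 19.3 in the FLAG IP, against 139 and 126 in the input), as did all 5 measured red blood cell markers of 6 (18.6 and 14.7, against 173 and 163). The gene of the Sertoli cell list that rose was Gata1, at 0.148 and 0.144 in the FLAG IP, against 0.0565 and 0.0686 in the input. Its level on FLAG IP replicate 1 was next to the lowest that counted as well above background there, 0.147. Whether Gata1 marks Sertoli cells at this stage was not tested. Nanos2 itself, the gene the transgene also carries, rose by 1.88 on the log2 scale, with 1.48 and 1.22 in the FLAG IP, against 0.398 and 0.337 in the input. In these bulk samples fewer cells of a type, less RNA per cell and lower recovery of an RNA in the precipitate cannot be told apart, and the part of these markers in the CEP values was not tested.

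**Figure D1:**
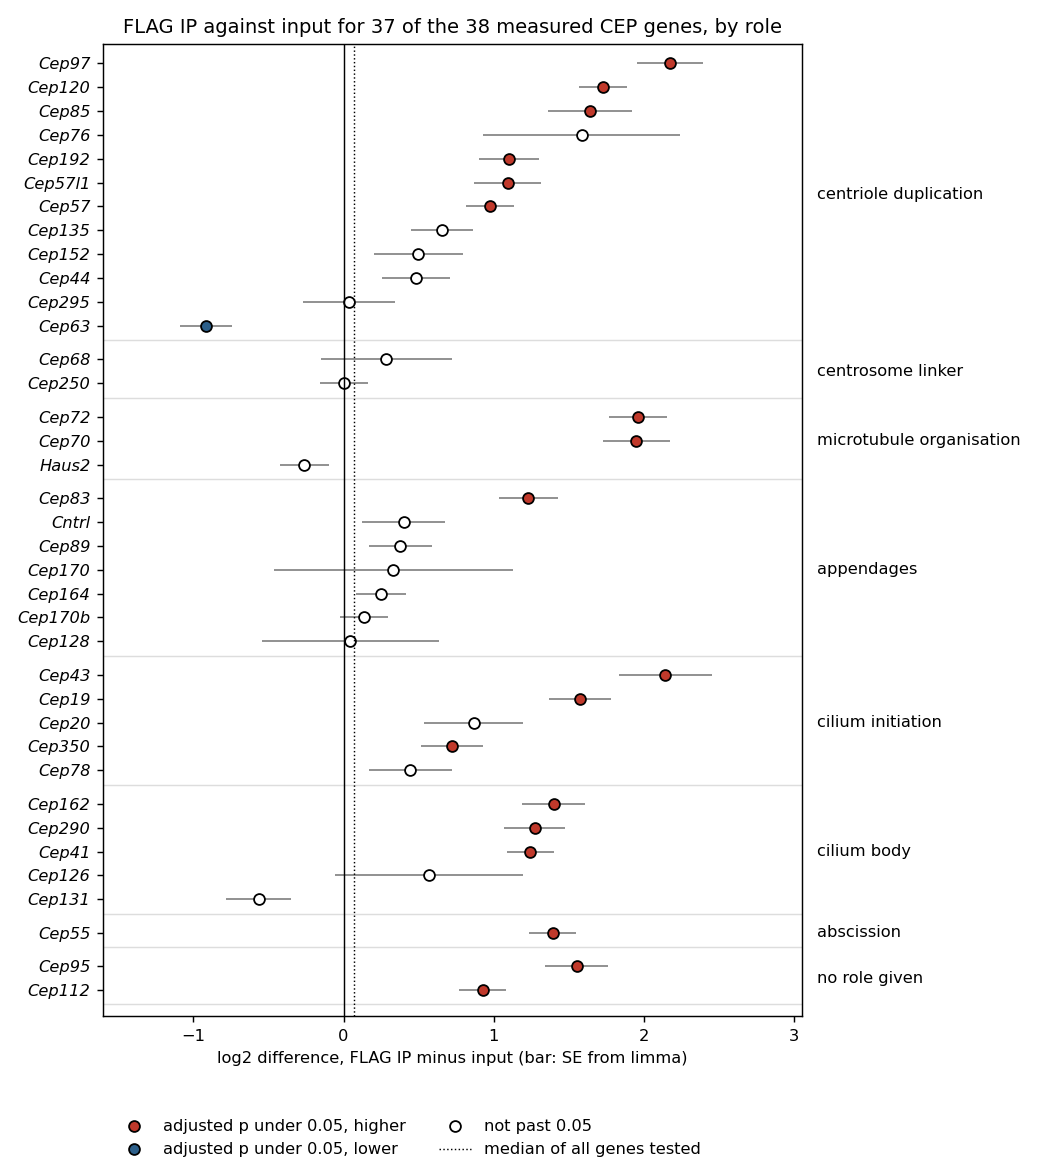
Log2 difference of FLAG IP minus input for 37 of the 38 measured CEP genes, grouped by role; each point is the brightest probe, the bar is the SE from limma (n = 2 arrays per group) and the dotted line is the median of all genes tested. Differences run from -0.91 for Cep63 to 2.17 for Cep97, and 34 points lie to the right of 0.

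Genes for proteins that build or limit centrioles covered the whole range. Of 12, 6 stood on the higher side of the threshold, 1 on the lower side and 5 on neither (28.0% and 25.4% of all genes stood higher and lower), with a median log2 difference of 1.04. Cep97 (Lrriq2 in the file, Entrez Gene ID 74201), whose protein caps the growing end of centrioles with CP110, had levels of 2.40 and 1.80 in the FLAG IP, against 0.488 and 0.434 in the input. The lower FLAG IP array thus stood well above the higher input array, and the log2 difference was 2.17 ± 0.22 (SE), or 4.52-fold. Cep120 (Ccdc100 in the file, ID 225523), needed for centrioles to elongate, had 2.14 and 1.98 in the FLAG IP, against 0.609 and 0.634 in the input. Both pairs of replicates were close, and the log2 difference was 1.73 ± 0.16. Cep85 (Ccdc21 in the file, ID 70012), which binds the duplication factor STIL, had 5.41 and 8.48 in the FLAG IP, against 2.05 and 2.30 in the input. The FLAG IP arrays differed more between themselves here, but each lay above both inputs, with a log2 difference of 1.64 ± 0.28.

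Cep76, a protein that prevents centrioles from duplicating again, was the most variable of the high genes. Its levels were 0.166 and 0.580 in the FLAG IP, against 0.0954 and 0.112 in the input, and only replicate 2 of the FLAG IP was well above background. The log2 difference of 1.58 ± 0.65 was the largest that stayed short of the threshold, while the smallest past it on the higher side was 0.72, for Cep350. The scaffold gene Cep192, whose product brings PLK4 to centrioles, had 1.54 and 1.99 in the FLAG IP, against 0.802 and 0.831 in the input (1.10 ± 0.20). Cep57 and its paralogue Cep57l1, which link centrioles to the surrounding material, stood at 0.98 ± 0.16 and 1.09 ± 0.22 on the log2 scale.

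Cep63 and Cep152, whose products form a ring around the centriole together and with CEP57, did not go the same way. Cep63 (ID 28135) had levels of 3.17 and 2.76 in the FLAG IP, against 5.75 and 5.41 in the input, and its log2 difference was -0.91 ± 0.17. It was the CEP gene with the most negative difference, and both FLAG IP arrays lay well below the inputs. Cep152 had 0.727 and 1.19 in the FLAG IP, against 0.638 and 0.679 in the input, a log2 difference of 0.50 ± 0.29. Its lower FLAG IP array was close to the inputs. Cep135, a component of the centriole core, stood at 0.65 ± 0.21, and Cep44, needed for new centrioles to mature, at 0.48 ± 0.23, each with 1 FLAG IP array well above background. Cep295, which turns a new centriole into one that can gather material, had 0.295 and 0.497 in the FLAG IP, against 0.374 and 0.372 in the input, so that the inputs lay between the FLAG IP arrays.

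**Figure D2:**
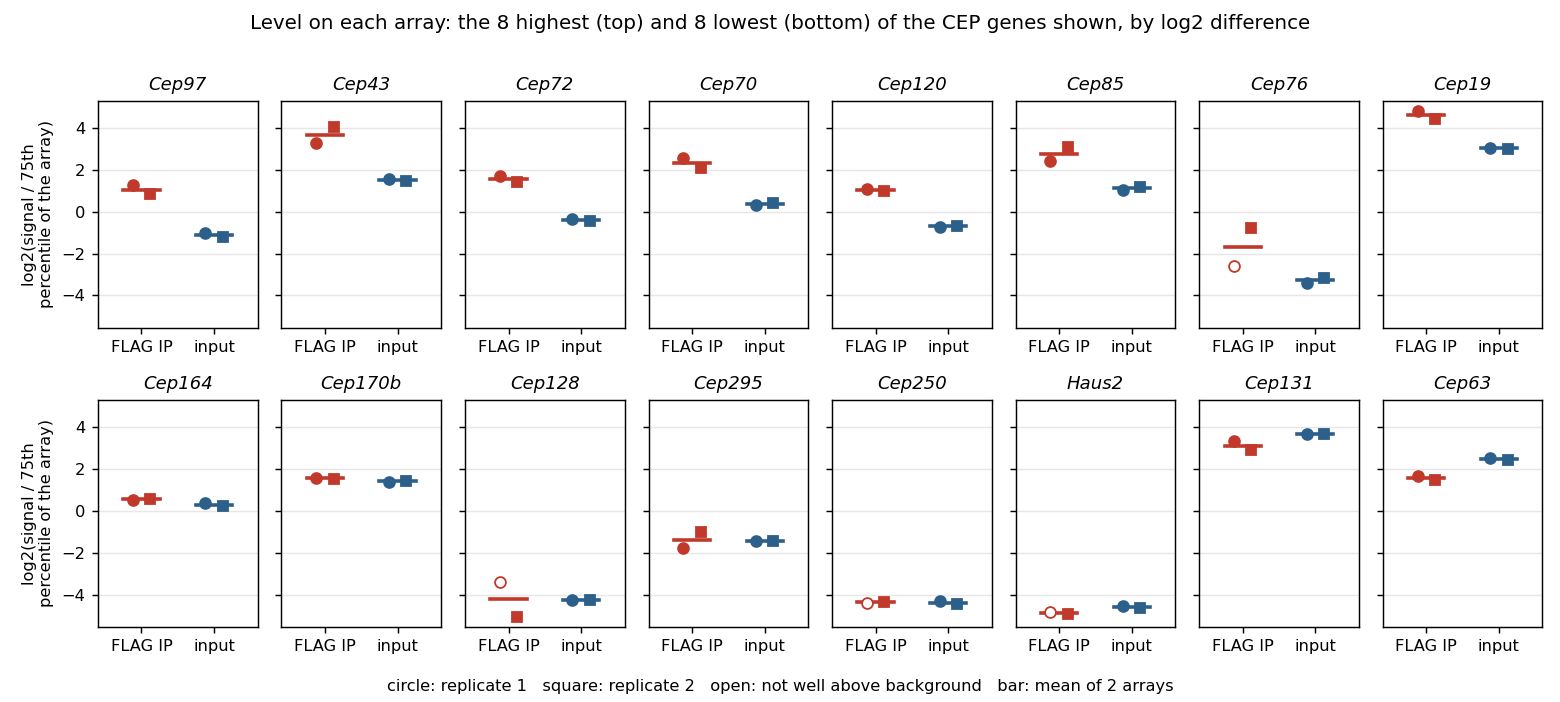
Level on each array as log2 of signal over the 75th percentile of the array, FLAG IP left and input right, for the 8 highest and the 8 lowest log2 differences among the CEP genes shown. The FLAG IP points lie above the input points in all 8 upper panels. In the lower row Cep63, Cep131 and Haus2 have both FLAG IP points below both input points. Haus2 was not well above background on FLAG IP replicate 1.

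Of the genes for microtubule organisation, Cep70 and Cep72 were among the 4 highest of all CEP genes. Cep72 (ID 74470), a protein of the satellites around the centrosome, had levels of 3.29 and 2.67 in the FLAG IP, against 0.798 and 0.726 in the input, a log2 difference of 1.96 ± 0.19. Cep70 (ID 68121), which interacts with gamma-tubulin, had 5.90 and 4.31 in the FLAG IP, against 1.27 and 1.35 in the input, a log2 difference of 1.95 ± 0.22. In both genes the gap between groups was several times the gap between replicates. Haus2, an augmin subunit that helps branch spindle microtubules, was dim, with 0.0356 and 0.0326 in the FLAG IP, against 0.0423 and 0.0395 in the input (-0.26 ± 0.16). FLAG IP replicate 1 was not well above background for it.

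The linker genes were at the lower limit of what the arrays measured. Cep250, the protein that ties the older ends of the centrioles together, had 0.0466 and 0.0497 in the FLAG IP, against 0.0499 and 0.0463 in the input, with a log2 difference of 0.00 ± 0.16. The groups overlapped fully, but FLAG IP replicate 1 was not well above background for Cep250, so that array does not measure a lack of difference. Cep68, which acts at the same linker, was not well above background on either FLAG IP array (0.0408 and 0.0185, against 0.0206 and 0.0247 in the input), and no fold is given for it.

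Genes for the appendages of the older centriole, which dock it to the membrane or anchor microtubules, had the lowest median of the larger role groups, 0.33 over 7 genes. Only Cep83, which begins the assembly of the distal appendages, passed the threshold, on the higher side (28.0% of all genes stood higher and 25.4% lower). It had levels of 6.11 and 7.75 in the FLAG IP, against 2.99 and 2.88 in the input, a log2 difference of 1.23 ± 0.20. The other distal appendage genes moved less: Cep164 had 1.42 and 1.505 in the FLAG IP, against 1.29 and 1.17 in the input (0.25 ± 0.17), and Cep89 had 8.09 and 6.12, against 5.30 and 5.52 (0.38 ± 0.21). For both, the groups were separate but close. Among the genes for the subdistal appendages, Cep170b, a paralogue of Cep170, stood at 0.14 ± 0.16, with 3.00 and 2.85 in the FLAG IP, against 2.61 and 2.71 in the input. Cntrl stood at 0.40 ± 0.28, with its lower FLAG IP array level with the inputs. Cep128 and Cep170 were dim and irregular, at 0.0935 and 0.0302 for Cep128 and 0.0446 and 0.208 for Cep170 in the FLAG IP, against 0.0515 on both input arrays for Cep128 and 0.0713 and 0.0823 for Cep170.

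The 5 genes grouped as acting when a cilium starts to form all had both FLAG IP arrays above both inputs, as had 42.0% of all genes. On the higher side of the threshold were 3 of the 5, against 28.0% of all genes. Cep43 (Fgfr1op in the file, ID 75296), the gene of the FOP protein, had levels of 9.64 and 16.3 in the FLAG IP, against 2.96 and 2.73 in the input, a log2 difference of 2.14 ± 0.31, or 4.41-fold. Cep19 (1500031L02Rik in the file, ID 66994), which FOP and CEP350 bring to the centriole, had 28.1 and 21.4 in the FLAG IP, against 8.38 and 8.08 in the input, a log2 difference of 1.58 ± 0.21. Cep350 itself had 0.849 and 1.10 in the FLAG IP, against 0.556 and 0.615 in the input, a log2 difference of 0.72 ± 0.21. The transcripts of all 3 thus stood higher, by different amounts. Cep20, a small relative of FOP listed in the file as 0610037P05Rik, stood at 0.87 ± 0.33 with 1 FLAG IP array well above background, and Cep78, a protein of the centriole wall, at 0.44 ± 0.28.

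Genes whose products act in the cilium or its base went both ways. Cep290, a gate protein at the base of the cilium whose human gene is mutated in several ciliopathies, had levels of 0.153 and 0.176 in the FLAG IP, against 0.0610 and 0.0758 in the input, a log2 difference of 1.27 ± 0.20. Cep162, which helps to bring CEP290 there, had 0.129 and 0.164 in the FLAG IP, against 0.0590 and 0.0514 in the input (1.40 ± 0.21). Both were dim, and only 1 FLAG IP array was well above background for each. Cep41 (Tsga14 in the file), needed for tubulin glutamylation in cilia, had 1.03 and 1.08 in the FLAG IP, against 0.458 and 0.434 in the input (1.24 ± 0.16). Cep131 (Azi1 in the file, ID 12009), a satellite protein, had 10.04 and 7.40 in the FLAG IP, against 12.7 and 12.8 in the input. It was next to Cep63 at the low end, with a log2 difference of -0.56 ± 0.22, and both FLAG IP arrays lay below both inputs. Cep126 stood at 0.57 ± 0.63, with 0.0578 and 0.191 in the FLAG IP, against 0.0673 and 0.0745 in the input.

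Cep55 is a protein of the midbody, where daughter cells separate, and in germ cells TEX14 binds it so that the cells stay joined by bridges. Its brightest probe had levels of 4.56 and 4.45 in the FLAG IP, against 1.75 and 1.69 in the input, a log2 difference of 1.39 ± 0.16. These were among the closest replicates of all CEP genes. Cep95 (Ccdc45 in the file) stood at 1.55 ± 0.21, with 2.52 and 2.03 in the FLAG IP, against 0.705 and 0.841 in the input. Cep112 (Ccdc46 in the file) stood at 0.93 ± 0.16, with 1.79 and 1.88 in the FLAG IP, against 0.936 and 0.995 in the input.

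The widest gaps between the FLAG IP arrays were in dim genes. The gap exceeded 1 on the log2 scale in 5 CEP genes, and 0 of these were well above background on both FLAG IP arrays. Neither array was always the higher: FLAG IP replicate 2 was above replicate 1 in 21 genes and below it in 17. With only replicate 1 of the FLAG IP set against the inputs the median log2 difference was 0.86, and with only replicate 2 it was 0.94. Across the 38 genes the difference and the input level had a Pearson's r of 0.09 and a Spearman's rho of 0.17, as a description of genes that share 4 arrays. Across all genes tested Pearson's r was -0.31. The input level is itself subtracted in the difference, which pulls such coefficients down, so nothing is read from these values.

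Probes of one gene did not always have the same sign. Of the 16 CEP genes with more than 1 measured probe, 10 had every probe above 0, Cep63 had both below 0 and 5 had probes on both sides, which is 31.2% against 27.6% of all genes with several measured probes. The distance between the most distant probes of a gene had a median of 0.88 on the log2 scale, against 0.64 for all such genes. The 41 measured probes whose target was among the current RefSeq transcripts of the gene had a median log2 difference of 0.98, with 5 below 0, and the 24 whose target was not had 0.58, also with 5 below 0.

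The widest gap was in Cep55. Its other probe, A_52_P475271, was designed on a cDNA clone that is not among the current RefSeq transcripts, and it had levels of 0.0300 and 0.00822 in the FLAG IP, against 0.0661 and 0.0587 in the input. It was not well above background on either FLAG IP array. On FLAG IP replicate 1 the lowest level that counted as well above background, 0.147, lay above both input levels. That array cannot show a fall for this probe, and no fold is given. The mean of both Cep55 probes was -0.30 on the log2 scale, opposite to the bright probe.

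Cep70 and Cep97 each had a dim probe with a difference near 0. For Cep70, the probes A_52_P329054 and A_51_P276831 stood at 1.95 and 1.88, whereas A_52_P198780 stood at -0.03, with 0.140 and 0.0888 in the FLAG IP, against 0.111 and 0.116 in the input. For Cep97, the probe A_52_P357181 stood at 0.04, with 0.0974 and 0.0603 in the FLAG IP, against 0.0765 and 0.0730 in the input, and A_52_P677167 at 0.58. On FLAG IP replicate 1 none of these dim probes was well above background. All 3 Cep70 probes and 2 of the 3 Cep97 probes had targets among the current RefSeq transcripts.

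Cep41 and Cep128 also had probes with opposite signs. For Cep41, A_51_P212271 stood at 1.24 like the brightest probe, with 0.549 and 0.279 in the FLAG IP, against 0.164 and 0.168 in the input, and A_52_P324848 stood at 0.55. The probe A_52_P362144 stood at -0.16, with 0.0485 and 0.0450 in the FLAG IP, against 0.0544 and 0.0499 in the input. The low Cep41 probe was well above background on 1 FLAG IP array. For Cep128, 3 dim probes stood at 0.05, -0.20 and -0.53, and the last, A_51_P361443, had 0.0391 and 0.0210 in the FLAG IP, against 0.0444 and 0.0388 in the input.

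In other genes the probes differed in size only. The largest difference of any measured CEP probe was that of the Cep83 probe A_52_P144964, with 0.842 and 0.613 in the FLAG IP, against 0.103 and 0.0947 in the input, a log2 difference of 2.87. The brightest Cep83 probe stood at 1.23 and the other at 1.39. The probes of Cep76 stood at 1.58 and 1.68 and those of Cep95 at 1.28 to 1.55, so the probes of these genes gave like values. Both Cep63 probes were on the low side, at -0.91 for the brighter and -1.53 for A_52_P647677, whose levels were 0.281 and 0.433 in the FLAG IP, against 0.978 and 1.03 in the input. Both were designed on cDNA clones that are not among the current RefSeq transcripts of Cep63.

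**Figure D3:**
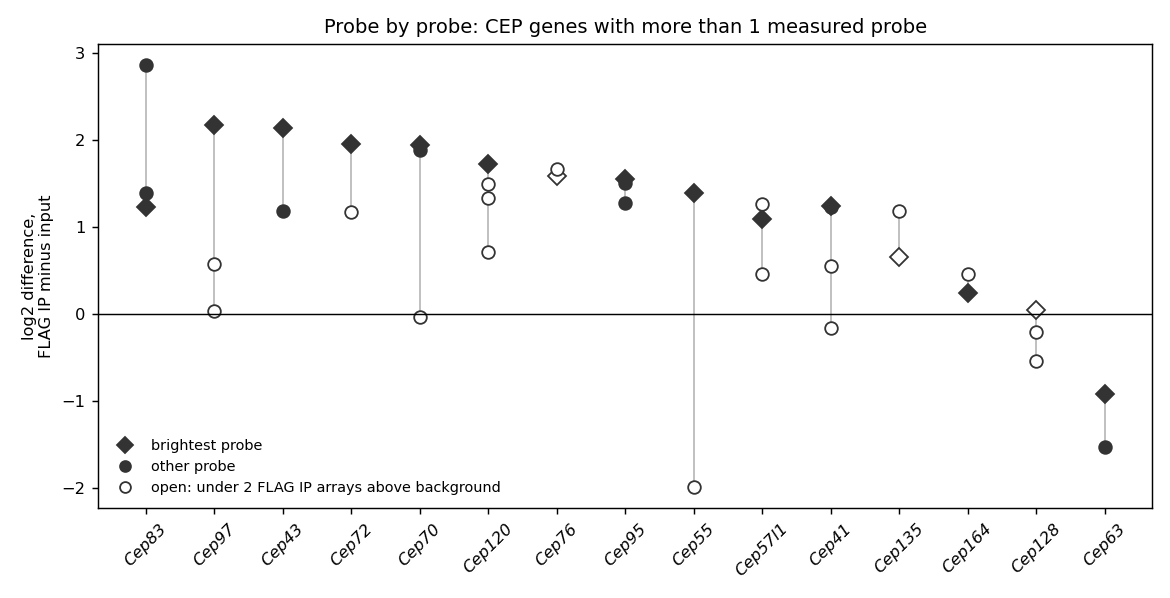
Log2 difference of FLAG IP minus input for each measured probe of 15 of the 16 CEP genes with more than 1 measured probe; diamonds mark the brightest probe and open symbols mark probes well above background on fewer than 2 FLAG IP arrays. Cep55 spans 1.39 to -1.99, where the low probe is dim on both FLAG IP arrays, and both Cep63 probes lie below 0.

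The remaining 17 probes did not pass the filter, and 13 of them were not well above background on any array. They include the only probes of Cep295nl, a gene similar to part of Cep295, and of Cep83os, a transcript from the opposite strand next to Cep83 that is no centrosome gene by its name. For the probe A_52_P121135 of Cep128 and A_52_P247092 of Cep162, 1 FLAG IP array and 0 input arrays were well above background. The Cep128 probe had 0.0357 and 0.0246 in the FLAG IP, against 0.00407 and 0.00966 in the input, and the Cep162 probe 0.0362 and 0.0254 in the FLAG IP, against 0.0148 and 0.00988 in the input. Only FLAG IP replicate 2 measured them, and no fold is given.

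Other genes of the centrosome, listed by structure, were set beside the CEP genes in the same fit. Of 81 measured genes from 6 lists, 28 rose and 14 fell in limma while 39 stayed short of the threshold, at a median log2 difference of 0.36. Over all genes tested 28.0% rose and 25.4% fell. The counts of the lists moved when single arrays were left out, where the lone array of a group is assumed to vary like the other group. Of 18 other genes of centriole duplication, 7 rose and 0 fell in limma. Plk4, the kinase that starts duplication, rose by 0.86 ± 0.21 (adjusted p = 0.0314), with 1.42 and 1.08 in the FLAG IP, against 0.660 and 0.711 in the input. Sass6, the gene of the cartwheel protein, stood at -0.10 ± 0.31.

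The satellite genes included the largest rises of the lists. In limma 7 of the 12 rose and 1 fell, and the median over the 12 was 1.20. Cfap53 (Ccdc11 in the list) rose by 2.85 ± 0.17 (limma adjusted p = 0.00380) and Ssx2ip, which helps build spindle poles, by 2.82 ± 0.26 (adjusted p = 0.00401). Pcm1, the scaffold of the satellites, rose by 1.25 ± 0.17 (adjusted p = 0.00775), with 1.79 and 2.10 in the FLAG IP, against 0.805 and 0.821 in the input. Cep131 and Cep72, also satellite proteins, stood at -0.56 and 1.96.

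The pericentriolar material and the appendages were mixed. Of 19 measured genes of the material and gamma-tubulin, 3 rose, 5 fell and 11 did not pass. Pcnt, the gene of the scaffold pericentrin, stood at -0.30 ± 0.35, with 7.64 and 14.1 in the FLAG IP, against 13.0 and 12.5 in the input. Of 11 measured genes of appendages and linker other than Cntrl, 3 rose and 3 fell, among them Lrrc45, which acts at the linker with Cep250, by 2.07 ± 0.15 (limma adjusted p = 0.00380). Of 14 measured genes of the ciliary transition zone, where CEP290 acts, 5 rose and 2 fell, among them B9d1, the gene of a protein of that zone, by 1.97 ± 0.16 (limma adjusted p = 0.00380).

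**Figure D4:**
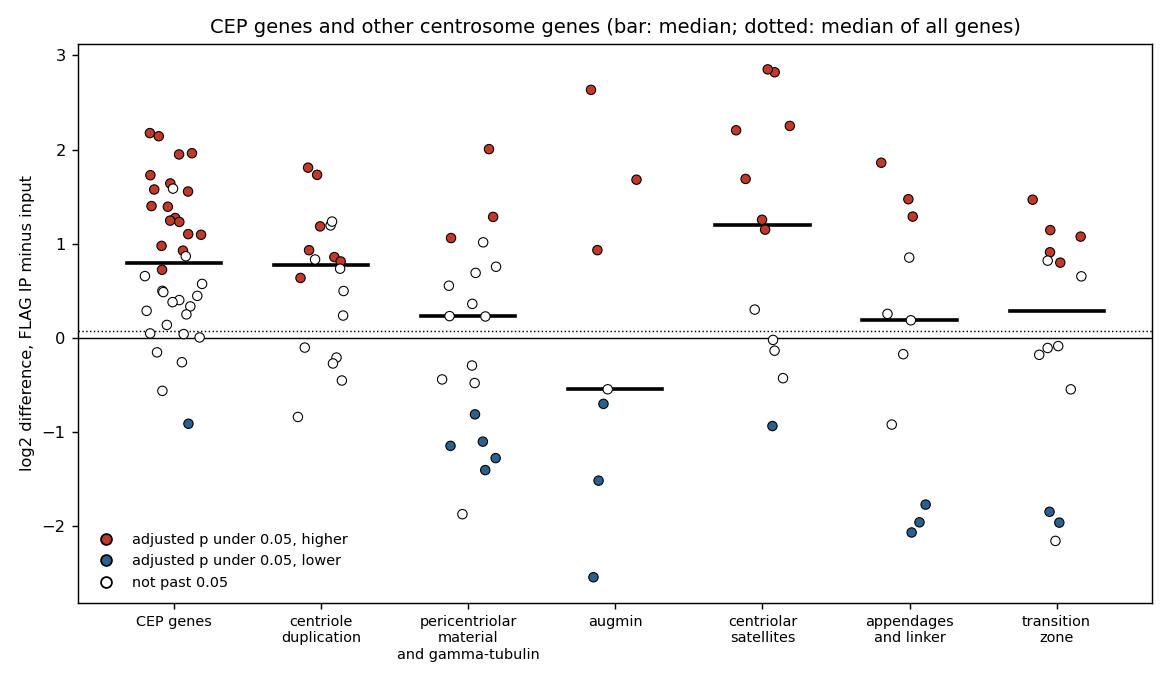
Log2 difference of FLAG IP minus input for the 38 CEP genes and 81 other centrosome genes in 6 lists; each point is a gene, bars are medians and filled points passed an adjusted p of 0.05. The median is 0.79 for the CEP genes and runs from -0.55 for augmin to 1.20 for centriolar satellites.

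The authors' deposited table gives a ratio to input per probe. Over the genes tested, its log2 ratio was lower than the difference used here by a median of 0.12, with an SD of 0.05. In the deposited table of the authors, which rests on the same arrays, the ratio of 31 of the 38 CEP genes was above 1. Their median log2 ratio was 0.65, against -0.05 over all genes tested.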

How the data were processed

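The submitters' processing notes name Agilent Feature Extraction 9.5 as the software. Per the file headers the values used are its processed signal, an intensity after background subtraction on 1-colour arrays. The authors' deposited table also gives a ratio to input and a p-value per probe. Its raw signal equalled the mean of both arrays of a group within 0.1% for 100% of single-spot probes, and its p-value was not used. The files left 0 per-sample columns unused.

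Control spots were left out and outlier spots set to missing. Intensity was divided by the 75th percentile of its array, turned to log2, and averaged over the spots of a probe. A gene was represented by its brightest probe among those read as well above background by both arrays of either group. Of the probes, 31004 were named by gene ID, 309 by an older symbol and 155 by an unchanged symbol, while 1108 had only the name given in the file and 8598 no name. Differences were fitted over 15269 genes with limma 3.58.1 in R 4.3.3, two-sided, with Benjamini-Hochberg adjustment at 0.05, and the fit was checked on simulated data. The number of arrays limits the precision. With 2 arrays per group an exact permutation test of a single value cannot give a p below 0.333, so p-values come from limma, and they measure only the spread between these arrays.

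The CEP genes, the roles and the other gene lists were chosen with earlier results of these data known. Named in full were the 8 highest and the 8 lowest CEP genes, those with probes of opposite sign and those with a bound above 1. A bound is the difference with dim signals of 1 group raised to the lowest signal that counted as above background. From the other lists, the 3 largest passing differences in each direction and Plk4, Sass6, Pcnt and Pcm1 were named. One CEP gene under that rule is not reported here by name, though it enters all counts and medians. Haus2 and Cntrl were counted as CEP genes only. Alternatives covered background correction, scaling, the filter, the choice of probe, outlier spots, blocks for replicate number and slide, and leaving out each array.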

Additional observations from a re-analysis of the deposited data

How the results depend on the processing

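The CEP median log2 difference of 0.79 stayed above 0 under every alternative run, while the number of genes past the threshold did not hold. It was 1.04 with probes well above background on all 4 arrays, 0.90 with no filter, 0.87 with every probe on its own, 0.72 with the mean of the probes of a gene, 0.70 with quantile normalization and 0.66 with median scaling. Median scaling put 2 of 38 CEP genes on the lower side, against 4298 of all 15269 genes. Counting each probe separately put 2 of 65 CEP probes and 23 of 135 partner probes there, against 5453 of all 23288 probes tested. Normexp background correction gave a CEP median of 1.23 with 8 CEP genes higher and 0 lower, 1275 of all genes higher and 1392 lower, and 13 partner genes higher and 8 lower. The median of all genes moved too: the CEP median stood 0.72 above it as reported, but 0.34 with no filter, 0.58 with slide as a block, 0.63 to 0.91 leaving out 1 array, and 0.69 to 0.85 under the other scalings, filters and probe choices that moved it. With slide as a block the CEP median was 0.65, with 5 CEP genes higher and 0 lower, 1433 of all genes higher and 1549 lower, and 9 partner genes higher and 5 lower. Leaving out 1 array at a time gave 0 to 27 CEP genes higher and 0 to 4 lower, a CEP median of 0.77 to 0.98, 0 to 6830 of all genes higher and 0 to 6053 lower, and 0 to 44 partner genes higher and 0 to 30 lower. The counts of 0 came without input replicate 1 (limma; 2732 of all genes higher and 2538 lower at an unadjusted p under 0.05), where the lone input array is assumed to vary like the FLAG IP. Among values past the threshold, signs turned for Cep55 (-0.30) and Rttn (-0.026) with the mean of the probes and for Cc2d2a (0.075) with normexp, and the cause was not tested. CEP genes short of the threshold turned more often: 30 of 38 were above 0 under quantile normalization, where Cep68 (-1.12), Cep250 (-0.75), Cep170 (-0.72) and Cep128 (-0.053) were below it, and 30 without FLAG IP replicate 2. Median scaling gave 31, and normexp turned Cep170b (-0.25) and Haus2 (1.41). The arrays share replicate numbers only: the replicate 1 minus replicate 2 differences of FLAG IP and input correlated at 0.05 over genes. With the replicate number as a block 18 CEP genes stood higher and 1 lower, and 4130 of all genes rose and 3875 fell. Dim signal on FLAG IP replicate 1 limits the 12 CEP genes that were not well above background there.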

Other observations

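The augmin complex, which recruits gamma-tubulin to existing spindle microtubules and of which the CEP gene Haus2 is a subunit, had genes at both ends. In limma 3 of its 7 other genes rose and 3 fell (28.0% of all genes rose and 25.4% fell). Haus3 had levels of 27.4 and 35.1 in the FLAG IP, against 5.21 and 4.79 in the input, and rose by 2.63 ± 0.20 on the log2 scale (limma adjusted p = 0.00380). Haus7 had 1.20 and 1.67 in the FLAG IP, against 8.01 and 8.57 in the input, and fell by 2.55 ± 0.23 (limma adjusted p = 0.00398). Haus2 read -0.26 ± 0.16, but it was not well above background on FLAG IP replicate 1. The lowest level that counted there, 0.147, lay above both Haus2 inputs, so that array cannot show a fall.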
